A study of Mus musculus with 9 samples.

Results

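The 51 genes described here build focal adhesions and the actin cytoskeleton, the contacts and filaments with which a cell grips its surroundings, keeps its shape and moves. They were taken by gene symbol from a count table of 49585 genes, and 49 of them had enough counts to be tested. They were picked because earlier results of the same libraries showed genes of this kind low in one sorted population, CD201+CD48+ cells. Their levels in that population are therefore given as a description, with no test, and no test of the set as a whole was made. CD201+CD48+ cells had the lowest mean level for 28 of the 49 genes, and for 18% of all genes, and CD201+CD48- cells or CD201- cells had it for the other 21. Nothing is read from that share, because the same values chose the genes.

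All libraries are bulk RNA-seq of wild type mouse cells grown from bone marrow haematopoietic stem cells (HSCs) of C57BL/6 mice. HSCs gated as CD34-CD150+KSL, where KSL stands for lineage-negative cells with Kit and Sca-1 on their surface, had been expanded in F12 medium with 0.1% polyvinyl alcohol (PVA) in place of serum albumin, and cytokines that included stem cell factor (SCF, 10 ng/ml). The growth protocol gives a week of culture and the series' design text gives 10 days. Over 5000 cells per population were then sorted as CD201+CD150+CD48+KSL (called CD201+CD48+ below), CD201+CD150+CD48-KSL (CD201+CD48-) and CD201-KSL (CD201-), with 3 libraries each. Titles of that last population name CD150+CD48+ as well, while its treatment label does not. Procr encodes CD201, a receptor for protein C. Nothing in the labels says that replicates came from separate cultures or animals, so the p-values measure the spread between these libraries, which may be technical.

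Library totals ran between 3810123 and 7072885 counts, and levels are given as CPM, read counts scaled to library size with TMM factors. The genes behind the gates followed the labels: CD201+CD48+ libraries averaged 26.5 ± 2.16 CPM of Procr (SD, n = 3), CD201+CD48- libraries 63.2 ± 3.74 CPM and CD201- libraries 3.56 ± 1.07 CPM. For Cd48 the CD201+CD48+ libraries averaged 83.3 ± 7.22 CPM, the CD201+CD48- libraries 5.86 ± 0.671 CPM and the CD201- libraries 125 ± 4.25 CPM. Kit, a marker of the KSL gate, was present in all populations, at 468 ± 14.5 CPM in CD201+CD48+, 509 ± 26.8 CPM in CD201+CD48- and 351 ± 20.1 CPM in CD201- libraries. Replicate 3 of CD201- stood apart: 354 genes lay over 2-fold from the mean of its group mates, against 10 to 74 genes in each of the other libraries. In bulk samples, fewer cells of a type and less RNA per cell cannot be told apart.

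Focal adhesions form where integrins, the receptors that span the membrane, are gripped from inside by talin and kindlin. Vinculin, alpha-actinin, filamin and the complex of ILK, PINCH and parvin then tie the integrin tails to actin filaments, while FAK and Src phosphorylate scaffold proteins such as paxillin. The Arp2/3 complex, formins and Ena/VASP proteins start and lengthen filaments, cofilin, profilin, capping protein and gelsolin turn them over, and myosin II pulls on them. In marrow, integrin adhesion holds HSCs in their niche, and megakaryocytes and platelets use the same machinery for attachment and contraction.

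Many genes of this machinery are known targets of SRF, a transcription factor that binds the CArG box. The consensus of that box was searched on both strands of RefSeq promoters (GRCm38.p6). No other motif was searched. RefSeq entries matched 42 of the 51 genes, with 54 promoters. Actb, Pxn, Parva, Ptk2, Ptk2b and Diaph1 were among the genes without an entry, so their promoters were not searched. Of the 54 promoters 4 held a box, 7.41%, against 535 of 32851 RefSeq promoters searched in the same way, 1.63%. The 4 genes were Vcl, Actg1, Arpc4 and Myl9. For the 3 that were tested, the window of 250 bases before the start site is printed 5′ to 3′ on the gene's strand, with the box in capitals. These genes differed in pattern: vinculin was low in CD201+CD48+ cells alone, whereas the cytoplasmic gamma-actin and the Arp2/3 subunit were high in CD201- cells. The Vcl window is chr14:20929148-20929397 on the plus strand, the Actg1 window chr11:120348496-120348745 on the minus strand and the Arpc4 window chr6:113377863-113378112 on the plus strand. The box began 227 bases before the start site in Vcl, 90 bases before it in Actg1 and 250 bases before it in Arpc4. A match of letters is a description and was not tied to binding here.
Vcl: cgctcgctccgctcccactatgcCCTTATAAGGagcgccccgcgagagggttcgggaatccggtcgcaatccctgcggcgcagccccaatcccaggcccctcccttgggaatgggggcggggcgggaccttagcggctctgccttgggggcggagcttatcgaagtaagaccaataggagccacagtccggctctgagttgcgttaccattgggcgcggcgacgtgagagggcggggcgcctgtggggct
Actg1: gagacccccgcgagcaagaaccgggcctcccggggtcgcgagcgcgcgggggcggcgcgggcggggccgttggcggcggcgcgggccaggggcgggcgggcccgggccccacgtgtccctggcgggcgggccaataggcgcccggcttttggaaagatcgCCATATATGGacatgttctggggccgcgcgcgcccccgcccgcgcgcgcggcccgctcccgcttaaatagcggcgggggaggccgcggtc
Arpc4: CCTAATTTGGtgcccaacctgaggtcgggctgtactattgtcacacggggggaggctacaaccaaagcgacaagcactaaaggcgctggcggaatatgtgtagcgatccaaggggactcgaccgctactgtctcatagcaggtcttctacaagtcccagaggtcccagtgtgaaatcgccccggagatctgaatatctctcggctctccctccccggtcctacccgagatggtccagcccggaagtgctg

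Across the set, CD201- cells had the highest mean for 32 of the 49 tested genes, against 42.2% of all 11619 genes tested. CD201+CD48- cells had the highest mean for 15 genes and the lowest for 12, against 39.1% and 39.7% of all genes. Every CD201- library lay above all 6 others for 26 of the 49 genes, against 17% of all genes. Every CD201+CD48+ library lay below all others for 13 genes, Tln1, Vcl, Zyx, Actn1, Fermt3, Parvb, Myh9, Arpc5, Was, Diaph1, Vasp, Cap1 and Rac1, against 2.47% of all genes; the same caution holds. No gene of the set had every CD201+CD48+ library above all others, against 1.72% of all genes. Without replicate 3 of CD201-, 16 genes had every CD201+CD48+ library lowest, against 3.48% of all genes. The heat map by library shows the patterns that make up these counts.

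**Figure D1:**
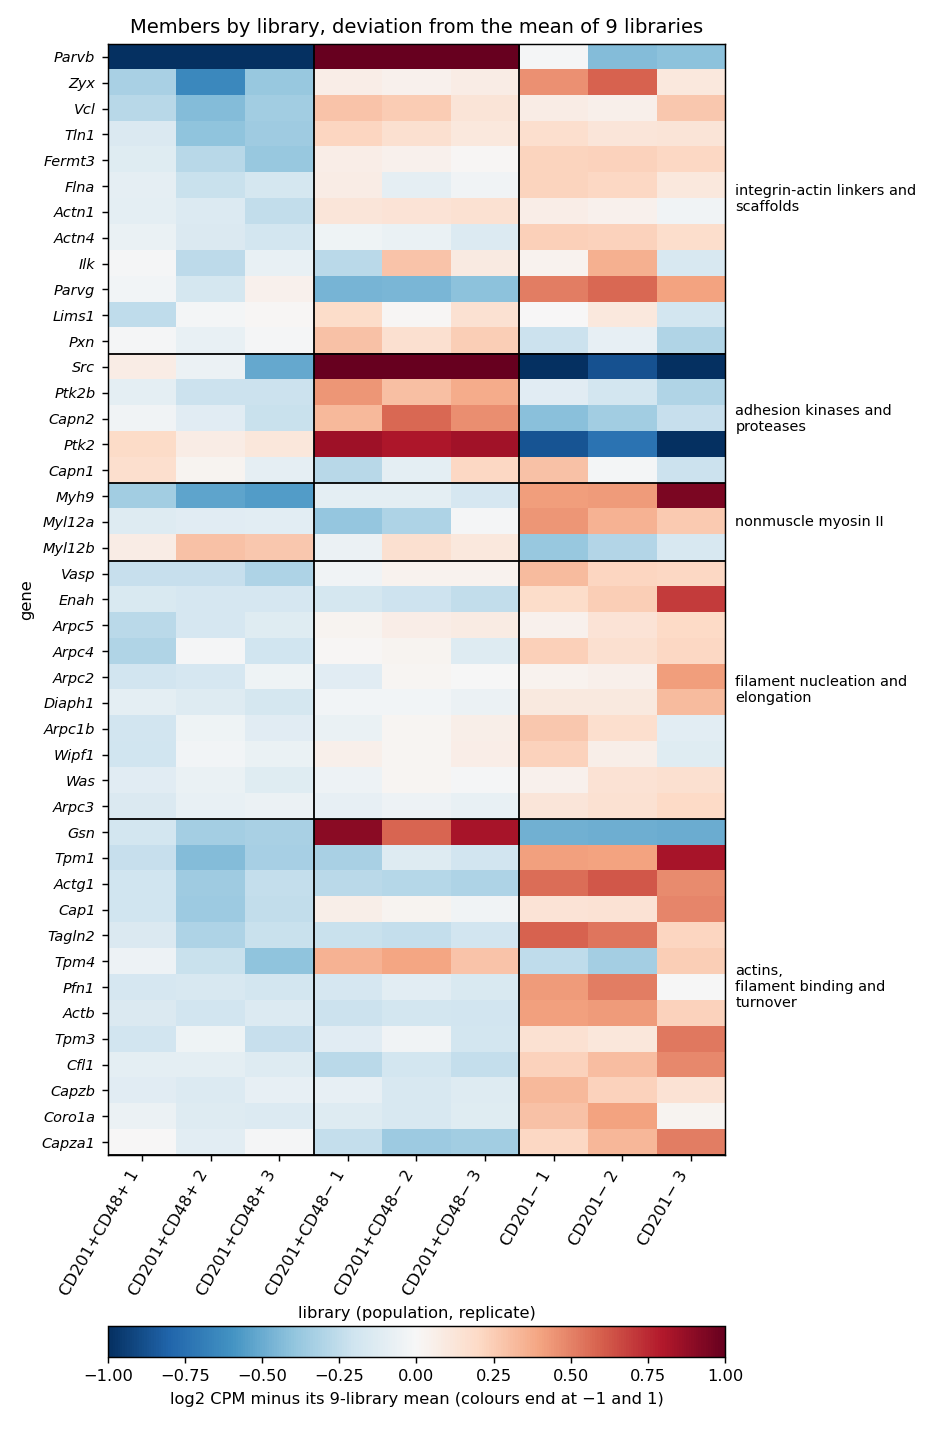
Each row is one of 43 tested genes, grouped by role, and each column a library; colour gives log2 CPM minus that gene's mean over the 9 libraries, with colours ending at -1 and 1. Most linker genes are bluest in the 3 CD201+CD48+ libraries, actin and filament-turnover genes other than Gsn and Tpm4 are mostly red in the 3 CD201- libraries, and Src, Ptk2, Ptk2b, Capn2, Gsn and Parvb are red in the 3 CD201+CD48- libraries.

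By edgeR's quasi-likelihood test with Benjamini-Hochberg adjustment over all genes, 3 of the 49 genes had higher and 29 lower levels in CD201+CD48+ cells with CD201- cells as the baseline, against 14.8% and 14.3% of all genes, with a median log2 fold change of -0.31. Set against CD201+CD48- cells, 2 genes were higher and 15 lower, against 6.31% and 9.05% of all genes, with a median of -0.12. Both comparisons were used to choose the genes and share their CD201+CD48+ libraries, so nothing is read from their counts. The comparison that the choice did not use directly, CD201+CD48- over CD201- cells, had 9 genes higher, 23 lower and 17 that did not pass, against 24.2% higher and 23.9% lower over all genes, or 48.1% in either direction. The share lower was 46.9% of the set and the share higher 18.4%, with a median log2 fold change of -0.19 beside 0.00 for all genes. That split depended on the scaling: with library size alone the median of all genes moved to 0.17, and 14 genes of the set were higher and 11 lower, with a median of -0.021. Without replicate 3 of CD201-, 11 were higher and 25 lower. This comparison shares its libraries with the 2 that chose the genes. Differences followed by a standard error (SE) below are log2 fold changes of this fit.

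The roles showed 3 orders of the populations in summed level. Integrin-actin linkers and scaffolds summed to 3491 to 3939 CPM in the CD201+CD48+ libraries, 4447 to 4723 CPM in the CD201+CD48- libraries and 4678 to 4919 CPM in the CD201- libraries. Adhesion kinases and proteases summed to 334.6 to 371.3 CPM in CD201+CD48+ libraries, 498.0 to 512.8 CPM in CD201+CD48- libraries and 296.3 to 331.1 CPM in CD201- libraries. Actins with filament-binding and turnover genes summed to 7545 to 7802 CPM in CD201+CD48+, 7601 to 7751 CPM in CD201+CD48- and 10621 to 11287 CPM in CD201- libraries. Nonmuscle myosin II and the nucleation genes had the order of the linkers, with 2216 to 2529.7 and 2231 to 2312 CPM in CD201+CD48+, 2861 to 2991 and 2409 to 2471 CPM in CD201+CD48-, and 4234 to 6024 and 2755 to 3036 CPM in CD201- libraries. In summed level the CD201+CD48+ libraries were thus lowest for these 3 roles and the CD201+CD48- libraries highest for the kinases. Both CD201+ populations overlapped below CD201- cells for the actins. The myosin sum was mostly Myh9. Of the 3 myosin genes tested, 1 had its lowest mean in CD201+CD48+ cells and 1 its highest.

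**Figure D2:**
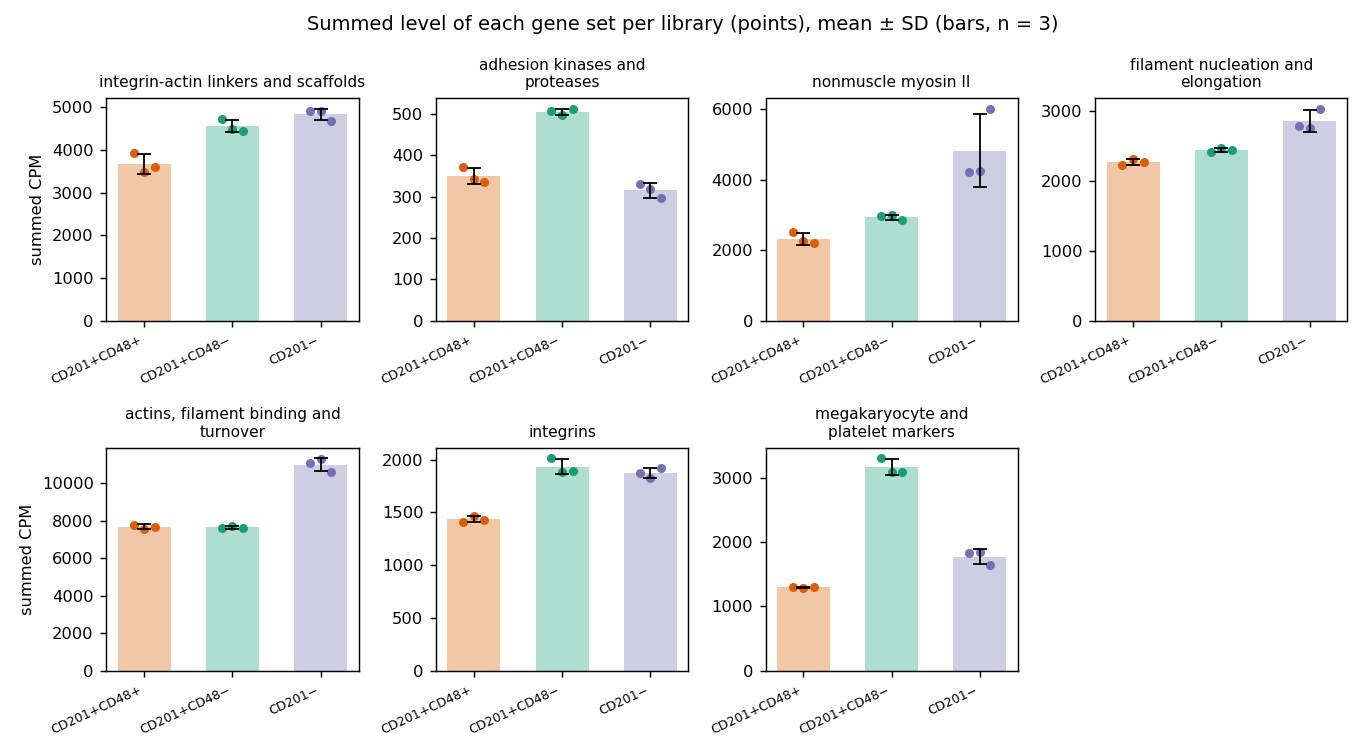
Summed CPM (y axis) of 5 role groups, the integrins and the megakaryocyte and platelet markers in each library (points), with the mean (bar) and SD (n = 3) per population. Linkers are lowest in CD201+CD48+ libraries (3491 to 3939 CPM), kinases highest in CD201+CD48- libraries (498.0 to 512.8 CPM) and actins highest in CD201- libraries (10621 to 11287 CPM).

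Among the 13 linkers and scaffolds, 10 of the 12 tested had their lowest mean in CD201+CD48+ cells, against 18% of all genes. Their median log2 difference was -0.39 from CD201- cells and -0.28 from CD201+CD48- cells. Between CD201+CD48- and CD201- cells that median was -0.02, with 2 genes higher and 3 lower, against 24.2% and 23.9% of all genes. With library size alone that median turned to 0.15, with 5 higher and 1 lower, while the median of all genes moved to 0.17. Tln1 (talin, which joins integrin tails to actin; GRCm38.p6 chromosome 4, 43531513 to 43562583) stood at 1584, 1319 and 1368 CPM in CD201+CD48+ libraries, 2032, 1952 and 1882 CPM in CD201+CD48- libraries and 1961, 1898 and 1911 CPM in CD201- libraries. All 3 CD201+CD48+ libraries were below the other 6, which overlapped each other. The log2 difference was -0.43 ± 0.09 (SE) from CD201- cells and -0.46 ± 0.09 (SE) from CD201+CD48- cells, whereas CD201+CD48- cells differed from CD201- cells by 0.02 ± 0.09 (SE) (edgeR adjusted p = 0.85). Vcl (vinculin, which reinforces talin's hold on actin; chromosome 14, 20929383 to 21033676) had the same shape. It read 136, 122 and 129.7 CPM in CD201+CD48+ libraries, 201, 197 and 181 CPM in CD201+CD48- libraries and 174, 171 and 199 CPM in CD201- libraries. The difference was -0.49 ± 0.08 (SE) from CD201- cells and -0.58 ± 0.08 (SE) from CD201+CD48- cells, and CD201+CD48- cells differed from CD201- cells by 0.09 ± 0.08 (SE) (edgeR adjusted p = 0.39, or 0.042 with a difference of 0.16 without replicate 3 of CD201-). Vcl overlaps other annotated genes, and the sources used here do not say whether counting used strand.

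Zyx (zyxin, a LIM protein that gathers at stretched actin fibres) was graded over the 3 populations. It stood at 131, 105 and 126 CPM in CD201+CD48+ libraries, 171, 169 and 172 CPM in CD201+CD48- libraries and 225, 246 and 176 CPM in CD201- libraries, with no overlap between any pair of populations. Its level in CD201+CD48- cells was -0.34 ± 0.11 (SE) log2 units from that in CD201- cells (edgeR adjusted p = 0.021). That call was lost without replicate 1 or 2 of CD201- (adjusted p = 0.055 and 0.098) and without replicate 1, 2 or 3 of CD201+CD48- (adjusted p = 0.059, 0.064 and 0.054). Without replicate 3 of CD201- the difference was -0.46 (adjusted p = 7.0e-08). Fermt3 (kindlin-3, the kindlin of blood cells) showed the same order, at 324, 290.5 and 269.7 CPM in CD201+CD48+, 368, 362 and 354 CPM in CD201+CD48- and 410.1, 412 and 407 CPM in CD201- libraries. Its difference between CD201+CD48- and CD201- cells was -0.18 ± 0.08 (SE) (edgeR adjusted p = 0.072), and without replicate 3 of CD201- it was -0.19 (adjusted p = 0.0063).

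The parvins, which link ILK to actin, took opposite courses. Parvb (beta-parvin; chromosome 15, 84232043 to 84315689) stood at 1.37, 1.51 and 1.93 CPM in CD201+CD48+ libraries, 31.6, 22.5 and 24.8 CPM in CD201+CD48- libraries and 5.75, 4.30 and 4.38 CPM in CD201- libraries. It had the largest log2 differences of CD201+CD48+ cells among the 49 genes: they were 16.1-fold below CD201+CD48- cells, with a log2 difference of -4.01 ± 0.23 (SE), and -1.55 ± 0.31 (SE) from CD201- cells. The CD201+CD48+ levels were low, so the size of both differences rests on few reads in those libraries. Between CD201+CD48- and CD201- cells Parvb rose by 2.46 ± 0.20 (SE) log2 units (edgeR adjusted p = 1.1e-07). Its neighbour Parvg (gamma-parvin, the parvin of blood cells; chromosome 15, 84324175 to 84342978) ran the other way, at 132, 119 and 138 CPM in CD201+CD48+, 97.6, 97.8 and 101 CPM in CD201+CD48- and 192, 200.1 and 178 CPM in CD201- libraries. The CD201+CD48- libraries were lowest without overlap, and the difference from CD201- cells was -0.94 ± 0.08 (SE) (edgeR adjusted p = 1.6e-07). Parva (alpha-parvin) was near absent, with 3, 0 and 2 counts in CD201+CD48+ libraries, 0, 0 and 1 count in CD201+CD48- libraries and 0 counts in each CD201- library, and was not tested.

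The scaffold genes Pxn and Lims1 were least low in CD201+CD48+ cells among the linkers. Pxn (paxillin, a docking protein for FAK and vinculin) stood at 103, 99.0 and 104 CPM in CD201+CD48+, 128, 116 and 124 CPM in CD201+CD48- and 90.1, 98.5 and 84.6 CPM in CD201- libraries. CD201+CD48- libraries were highest, and Pxn rose by 0.43 ± 0.08 (SE) over CD201- cells (edgeR adjusted p = 3.6e-04). Lims1 (PINCH1, the adaptor of ILK) read 130.2, 153 and 156 CPM in CD201+CD48+, 176, 156 and 172 CPM in CD201+CD48- and 155, 167 and 136 CPM in CD201- libraries, with CD201- libraries overlapping the other 2 populations. Actn4 (alpha-actinin-4, a filament crosslinker) was lower in CD201+CD48- cells, at -0.30 ± 0.07 (SE) over CD201- cells (edgeR adjusted p = 0.0031), whereas Actn1, its paralogue, differed by 0.11 ± 0.08 (SE) (adjusted p = 0.25). Ilk differed between no pair of populations without overlap of their libraries, and 83.7% of the 36-base words in its transcript also occur in other annotated genes. Flna (filamin A, which crosslinks filaments and binds integrin tails) averaged 917 ± 44.5 CPM in CD201+CD48+, 1014 ± 58.5 CPM in CD201+CD48- and 1159.9 ± 51.8 CPM in CD201- cells (SD, n = 3). Its CD201+CD48- over CD201- difference was -0.19 ± 0.08 (SE) (edgeR adjusted p = 0.069, and 0.00037 with -0.23 without replicate 3 of CD201-).

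**Figure D3:**
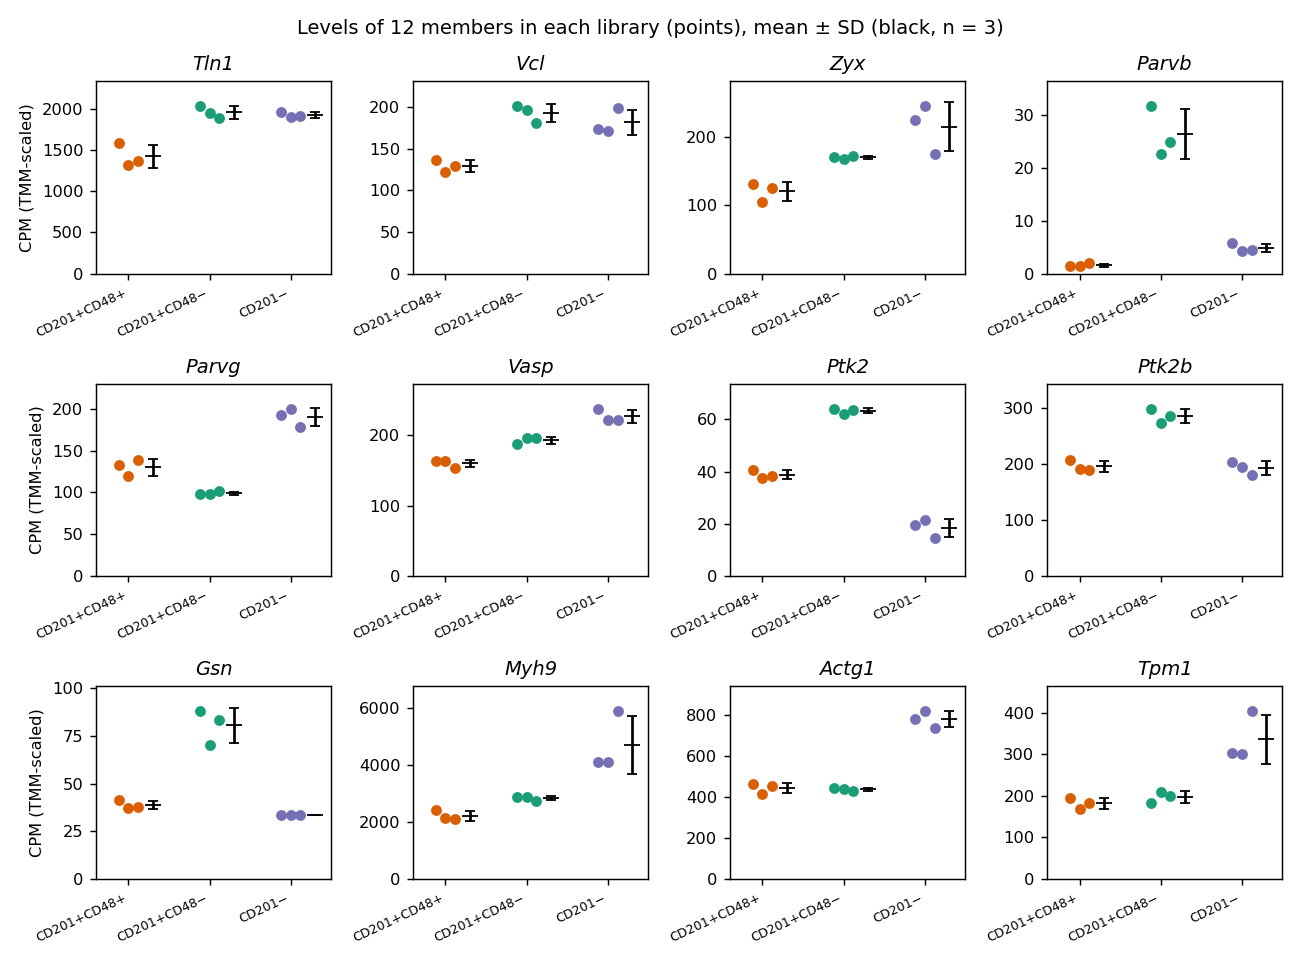
Level of 12 genes of the set in CPM (y axis) in each library (points), with the mean ± SD of 3 libraries beside them in black. Tln1, Vcl and Vasp are lowest in CD201+CD48+ libraries, Ptk2, Ptk2b, Gsn and Parvb peak in CD201+CD48- libraries, and Myh9, Actg1, Tpm1 and Parvg are highest in CD201- libraries.

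Kinases and proteases of the adhesion followed another order, with CD201+CD48- cells on top. Of 5 genes, 4 had all CD201+CD48- libraries above the other 6, all 4 rose over CD201- cells, and none of the 5 had its lowest mean in CD201+CD48+ cells. Over all genes these shares were 16.5%, 24.2% and 18%. Ptk2 (FAK, the focal adhesion kinase; chromosome 15, 73205102 to 73423820) stood at 40.7, 37.4 and 38.4 CPM in CD201+CD48+ libraries, 64.1, 62.2 and 63.5 CPM in CD201+CD48- libraries and 19.5, 21.3 and 14.7 CPM in CD201- libraries. No populations overlapped, and Ptk2 rose by 1.77 ± 0.12 (SE) log2 units, 3.42-fold, in CD201+CD48- over CD201- cells (edgeR adjusted p = 1.6e-08). In CD201+CD48+ cells it was 1.07 ± 0.12 (SE) from CD201- and -0.70 ± 0.11 (SE) from CD201+CD48- cells, so CD201+CD48+ cells lay between the others. Src (the kinase that partners FAK) kept the same order at a low level, with 2.90, 2.65 and 1.93 CPM in CD201+CD48+, 10.6, 7.83 and 8.41 CPM in CD201+CD48- and 0.885, 1.51 and 0.657 CPM in CD201- libraries. Src rose by 3.12 ± 0.34 (SE) log2 units in CD201+CD48- over CD201- cells (edgeR adjusted p = 2.6e-06), with as few as 3 counts in the CD201- libraries behind it.

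Ptk2b (PYK2, the calcium-responsive relative of FAK) stood higher in CD201+CD48- cells than in both other populations, whose libraries overlapped. It read 207, 191 and 190.1 CPM in CD201+CD48+ libraries, 299, 273 and 287 CPM in CD201+CD48- libraries and 205, 195 and 179.9 CPM in CD201- libraries. The CD201+CD48- over CD201- difference was 0.57 ± 0.08 (SE) (edgeR adjusted p = 2.2e-05), and CD201+CD48+ cells differed from CD201- cells by 0.02 ± 0.08 (SE). Capn2 (calpain-2, a protease that cuts talin) averaged 74.1 ± 4.80 CPM in CD201+CD48+, 111 ± 9.64 CPM in CD201+CD48- and 64.2 ± 4.35 CPM in CD201- libraries (SD, n = 3). It rose by 0.78 ± 0.09 (SE) in CD201+CD48- over CD201- cells (edgeR adjusted p = 5.1e-06). Capn1, the other ubiquitous calpain, read 41.9, 38.0 and 35.1 CPM in CD201+CD48+, 30.7, 34.9 and 43.2 CPM in CD201+CD48- and 45.8, 36.8 and 32.2 CPM in CD201- libraries, with all 3 populations overlapping. Its CD201+CD48- over CD201- difference was -0.08 ± 0.15 (SE) (edgeR adjusted p = 0.67).

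Myh9, the heavy chain of nonmuscle myosin IIA (chromosome 15, 77760585 to 77842175), stood at 2414, 2127 and 2089 CPM in CD201+CD48+ libraries, 2878, 2877 and 2739.9 CPM in CD201+CD48- libraries and 4112, 4119 and 5902 CPM in CD201- libraries. The 3 populations did not overlap, and replicate 3 of CD201- was the highest of all. Myh9 fell by 0.73 ± 0.13 (SE) log2 units in CD201+CD48- relative to CD201- cells (edgeR adjusted p = 2.4e-04), and the difference was -0.54 without that replicate. CD201+CD48+ cells were 2.13-fold below CD201- cells, a log2 difference of -1.09 ± 0.13 (SE), or -0.89 without that replicate. The regulatory light chains diverged. Myl12a read 50.4, 51.0 and 51.2 CPM in CD201+CD48+, 42.2, 44.5 and 54.7 CPM in CD201+CD48- and 74.8, 69.9 and 66.2 CPM in CD201- libraries, a difference of -0.58 ± 0.10 (SE) between the last 2 populations (edgeR adjusted p = 2.6e-04). Myl12b, which encodes a nearly identical light chain, read 65.6, 76.2 and 75.1 CPM in CD201+CD48+, 59.8, 69.5 and 66.9 CPM in CD201+CD48- and 47.8, 50.8 and 55.9 CPM in CD201- libraries, a difference of 0.34 ± 0.10 (SE) (edgeR adjusted p = 0.010). So Myl12a was highest and Myl12b lowest in CD201- cells, without overlap with the CD201+ libraries in either case. Of the 36-base words in their transcripts, 23.6% for Myl12a and 32.9% for Myl12b occur in other genes. Each of the pair leads the other's list, so some of their reads may be shared. Myl9, the light chain of smooth muscle and megakaryocytes, had 1 count in a single CD201+CD48- library and was not tested.

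Genes that start and lengthen filaments had small differences in a common order. Of 10 genes, 9 had the lowest mean in CD201+CD48+ cells and all 10 had the highest in CD201- cells, against 18% and 42.2% of all genes. In CD201+CD48- over CD201- cells, 5 fell and none rose, against 23.9% and 24.2% of all genes, with a median of -0.21. Of these 5, Enah still passed with library size alone, where the median was -0.04 and that of all genes 0.17. Enah (Mena, an Ena/VASP protein that shields growing filament ends) had the largest of these differences, -0.61 ± 0.11 (SE) (edgeR adjusted p = 3.2e-04). Its libraries stood at 244, 241 and 241 CPM in CD201+CD48+, 239, 234 and 228 CPM in CD201+CD48- and 308, 321 and 439 CPM in CD201- cells, with replicate 3 of CD201- highest, and without that replicate the difference was -0.43. Vasp, the founding member of that family, was lowest in CD201+CD48+ cells, at 163, 163 and 154 CPM, against 187, 195 and 195 CPM in CD201+CD48- and 237, 221 and 220.5 CPM in CD201- libraries. No populations overlapped, and the CD201+CD48- over CD201- difference was -0.24 ± 0.07 (SE) (edgeR adjusted p = 0.011, or 0.053 without replicate 1 of CD201+CD48-).

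The 5 listed subunits of the Arp2/3 complex, which branches new filaments off old ones, all averaged lowest in CD201+CD48+ and highest in CD201- cells. Arpc3 stood at 163, 171 and 173 CPM in CD201+CD48+, 170.4, 174 and 171 CPM in CD201+CD48- and 196, 199.9 and 207 CPM in CD201- libraries, so both CD201+ populations overlapped below CD201- cells. It fell by 0.23 ± 0.07 (SE) log2 units in CD201+CD48- relative to CD201- cells (edgeR adjusted p = 0.012). Arpc4 fell by 0.23 ± 0.08 (SE) (adjusted p = 0.033), a call lost without replicate 1 of CD201- (0.075) and without replicate 1 or 3 of CD201+CD48- (0.058 and 0.15). Arpc5 was the subunit with every CD201+CD48+ library lowest, at 102, 109 and 113 CPM, against 125, 129 and 129.7 CPM in CD201+CD48- and 126, 135 and 141 CPM in CD201- libraries. Arpc1b and Arpc2 differed by -0.11 ± 0.09 (SE) and -0.21 ± 0.10 (SE) between CD201+CD48- and CD201- cells and did not pass (adjusted p = 0.33 and 0.089); without replicate 3 of CD201- Arpc1b passed (0.0015), and without its replicate 1 or 2 Arpc2 passed (0.036 and 0.044). Leaving out replicate 3 of CD201- brought Arpc2 to -0.08 (adjusted p = 0.26).

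Was, the blood-cell activator of Arp2/3, read 109, 113 and 109 CPM in CD201+CD48+, 114, 120.0 and 117 CPM in CD201+CD48- and 122, 130.4 and 132 CPM in CD201- libraries. Those steps were ordered without overlap but small, and the difference between CD201+CD48- and CD201- cells, -0.13 ± 0.07 (SE), did not pass (edgeR adjusted p = 0.15). Its partner Wipf1 averaged 99.6 ± 6.07 CPM in CD201+CD48+, 109.9 ± 1.87 CPM in CD201+CD48- and 111 ± 13.4 CPM in CD201- libraries (SD, n = 3). Diaph1, a formin, fell by 0.21 ± 0.08 (SE) in CD201+CD48- relative to CD201- cells (adjusted p = 0.042). That call was lost without any single library of CD201+CD48- (adjusted p = 0.095 to 0.12) or of CD201+CD48+ (0.053 to 0.062). Leaving out replicate 3 of CD201- gave -0.14 (adjusted p = 0.022).

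**Figure D4:**
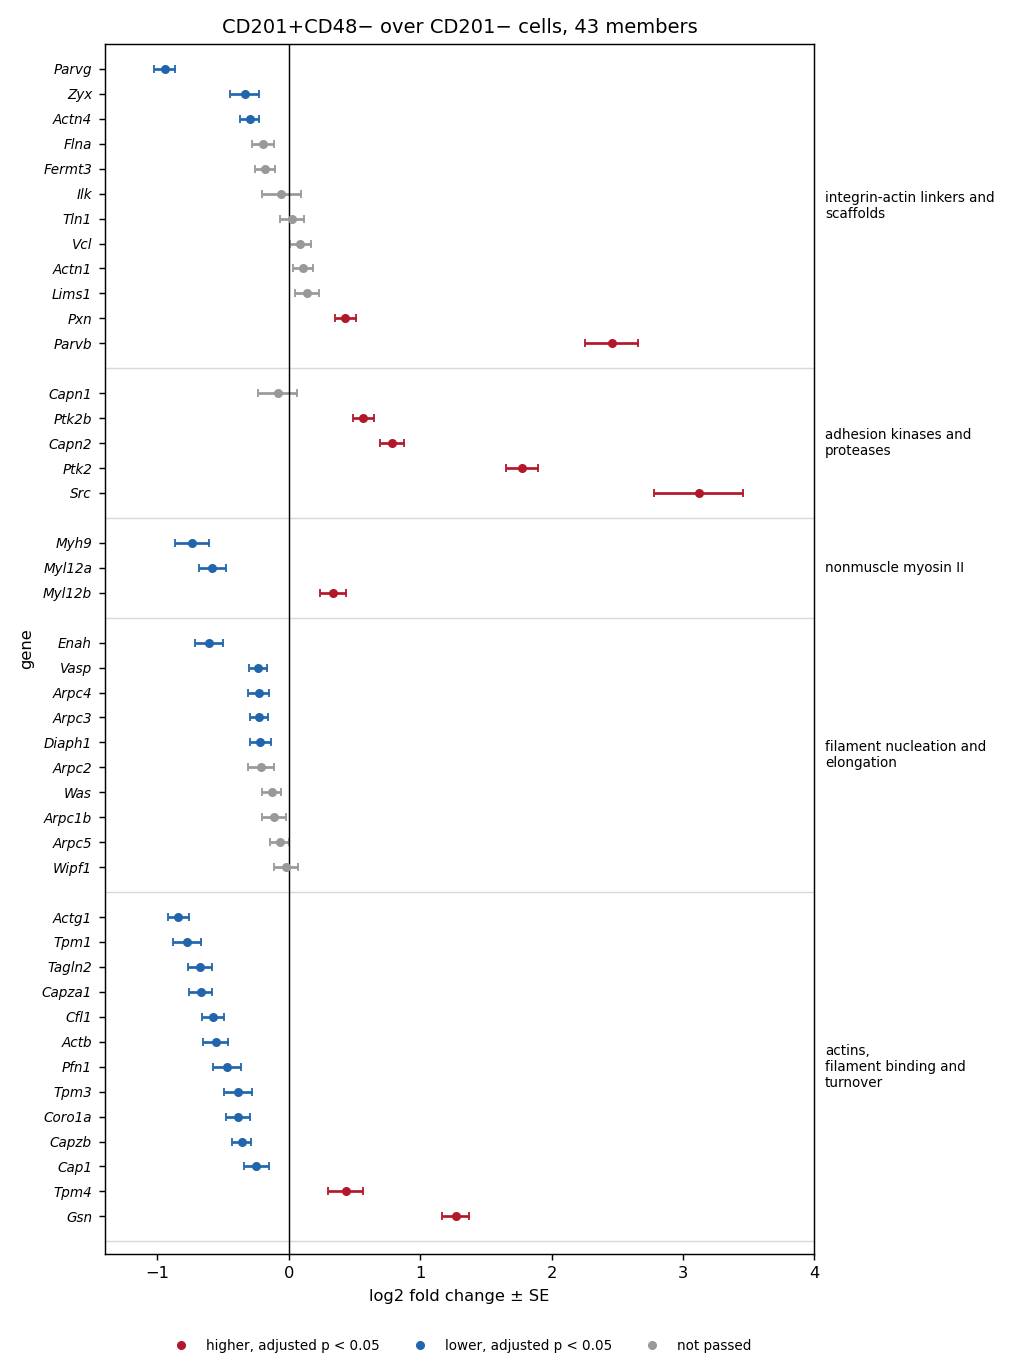
Log2 fold change ± SE (x axis) of 43 tested genes in CD201+CD48- over CD201- cells from the edgeR fit, by role and ranked within it; red and blue points passed an adjusted p of 0.05. Of the 13 actin and turnover genes 11 are blue and 2, Tpm4 and Gsn, are red, while 4 of 5 kinases and proteases are red.

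Actins and the genes that bind, cap or sever filaments separated CD201- cells from both CD201+ populations. Of 13 genes, 11 had every CD201- library above the other 6, and the same number fell in CD201+CD48- relative to CD201- cells. Over all genes these shares were 17% and 23.9%. The median of the 13 was -0.47 in that comparison and -0.01 in CD201+CD48+ over CD201+CD48- cells. With library size alone 7 fell, 2 rose and the median was -0.31, beside 0.17 for all genes. Actb (beta-actin) stood at 4241, 4097 and 4261 CPM in CD201+CD48+ libraries, 4044, 4135 and 4098 CPM in CD201+CD48- libraries and 6241, 6296 and 5505 CPM in CD201- libraries, a difference of -0.56 ± 0.09 (SE) between the last 2 (edgeR adjusted p = 1.7e-04). Actg1 (gamma-actin) read 466, 417 and 452 CPM in CD201+CD48+, 443, 437 and 432 CPM in CD201+CD48- and 785, 821 and 741 CPM in CD201- libraries. It fell by 0.84 ± 0.08 (SE) log2 units in CD201+CD48- relative to CD201- cells (edgeR adjusted p = 5.0e-07), and CD201+CD48+ cells differed from CD201+CD48- cells by 0.02 ± 0.08 (SE). Of the 36-base words in its transcript, 90.0% occur in other annotated genes, so its reads may be shared.

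Tpm1 (tropomyosin 1, which lines filaments and gates myosin) stood at 194, 169 and 181 CPM in CD201+CD48+, 182, 209 and 199 CPM in CD201+CD48- and 303, 301 and 404 CPM in CD201- libraries. It fell by 0.78 ± 0.11 (SE) in CD201+CD48- relative to CD201- cells (edgeR adjusted p = 3.3e-05), and the difference was -0.63 without replicate 3 of CD201-. Capza1 (the alpha-1 subunit of capping protein, which stops filament growth) lay higher in CD201+CD48+ than in CD201+CD48- libraries, without overlap. Its levels were 111, 102 and 109 CPM in CD201+CD48+, 93.6, 85.9 and 86.8 CPM in CD201+CD48- and 127, 139 and 158 CPM in CD201- libraries. Capza1 differed by -0.67 ± 0.09 (SE) between CD201+CD48- and CD201- cells (edgeR adjusted p = 1.5e-05), and 86.6% of its 36-base words recur in other genes. Coro1a (coronin-1A, a filament-binding protein of leukocytes) read 487, 463 and 462 CPM in CD201+CD48+, 465, 455 and 467 CPM in CD201+CD48- and 620.4, 671 and 518 CPM in CD201- libraries, a difference of -0.38 ± 0.09 (SE) (adjusted p = 0.0026). The CD201+ libraries overlapped each other for Tpm1 and Coro1a and separated for Capza1.

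Among the rest of that role, Cfl1 (cofilin, which severs old filaments) fell by 0.57 ± 0.08 (SE) and Pfn1 (profilin, which feeds actin to growing ends) by 0.47 ± 0.11 (SE) in CD201+CD48- relative to CD201- cells (edgeR adjusted p = 4.2e-05 and 0.0018). Tagln2, a bundling protein, fell by 0.67 ± 0.09 (SE) and Capzb, the partner of Capza1, by 0.36 ± 0.07 (SE) (adjusted p = 2.6e-05 and 7.3e-04). Tpm3 fell by 0.39 ± 0.11 (SE), and Cap1, which recycles actin with cofilin, by 0.25 ± 0.09 (SE) (adjusted p = 0.0072 and 0.042). Leaving out replicate 3 of CD201- gave -0.24 for Tpm3 (adjusted p = 2.1e-04). The Cap1 call was lost without replicate 3 of CD201- (-0.12, adjusted p = 0.070), without any single CD201+CD48- library (0.075 to 0.14) and without replicate 1 or 3 of CD201+CD48+ (0.053 and 0.059). Cap1 was also the gene of this role with every CD201+CD48+ library lowest, at 264, 236 and 256 CPM, against 316, 309.8 and 296 CPM in CD201+CD48- and 334, 335 and 426 CPM in CD201- libraries.

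Gsn and Tpm4 broke from the other 11 genes. Gsn (gelsolin, a calcium-driven severing protein; chromosome 2, 35256359 to 35307902) stood at 41.3, 37.2 and 37.5 CPM in CD201+CD48+ libraries, 88.1, 70.5 and 83.5 CPM in CD201+CD48- libraries and 33.6, 33.6 and 33.3 CPM in CD201- libraries. CD201+CD48- cells were far above the rest, and Gsn rose by 1.27 ± 0.10 (SE) log2 units, 2.42-fold, over CD201- cells (edgeR adjusted p = 1.0e-07). CD201+CD48+ cells were -1.06 ± 0.10 (SE) from CD201+CD48- cells. Tpm4, a tropomyosin of short filaments, read 84.6, 74.8 and 66.0 CPM in CD201+CD48+, 111, 115 and 106 CPM in CD201+CD48- and 73.3, 69.1 and 104 CPM in CD201- libraries. It rose by 0.43 ± 0.13 (SE) in CD201+CD48- over CD201- cells (adjusted p = 0.015), a call lost without replicate 1 or 2 of CD201- (adjusted p = 0.055 and 0.063) or replicate 2 of CD201+CD48- (0.0505), and replicate 3 of CD201- was higher than its group mates. Without it the difference was 0.64 (adjusted p = 8.4e-09).

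Levels per kilobase of the canonical GENCODE transcript show how the make-up of 4 paralogue families shifted. Of summed parvin, Parvb made up 0.853% ± 0.126 (SD, n = 3) in CD201+CD48+, 15.6% ± 2.47 in CD201+CD48- and 1.74% ± 0.288 in CD201- libraries, and Parvg nearly all the rest. Of the regulatory light chains, Myl12a made up 30% ± 1.58 in CD201+CD48+, 30.4% ± 2.63 in CD201+CD48- and 45.4% ± 3.45 in CD201- libraries. Tpm1 made up 22.9% ± 2.09 of the 3 tropomyosins in CD201+CD48+, 22.8% ± 1.26 in CD201+CD48- and 29.4% ± 0.255 in CD201- libraries. For Myl12a and Tpm1 the mean shares of both CD201+ populations lay within 1 SD of each other, with CD201- libraries above them. Tpm4 made up 9.60% ± 0.993 in CD201+CD48+, 13.1% ± 0.232 in CD201+CD48- and 7.24% ± 0.396 in CD201- libraries, so there the CD201+ populations were further apart. Ptk2 made up 15.8% ± 0.220 of Ptk2 with Ptk2b in CD201+CD48+, 17.3% ± 0.446 in CD201+CD48- and 8.27% ± 1.11 in CD201- libraries. Among the pairs not drawn, Actg1 made up 8.45% ± 0.297 of both actins in CD201+CD48+, 8.52% ± 0.166 in CD201+CD48- and 10.2% ± 0.307 in CD201- libraries. Of both alpha-actinins Actn1 made up 15.4% ± 0.292 in CD201+CD48+, 17.7% ± 0.644 in CD201+CD48- and 14.0% ± 0.162 in CD201- libraries. The smaller share in each pair was Actg1 and Actn1 in every population. Capn2 made up 65.4% ± 0.581 of both calpains in CD201+CD48+, 74.9% ± 3.00 in CD201+CD48- and 62.1% ± 5.72 in CD201- libraries. These shares are descriptions and were not tested.

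**Figure D5:**
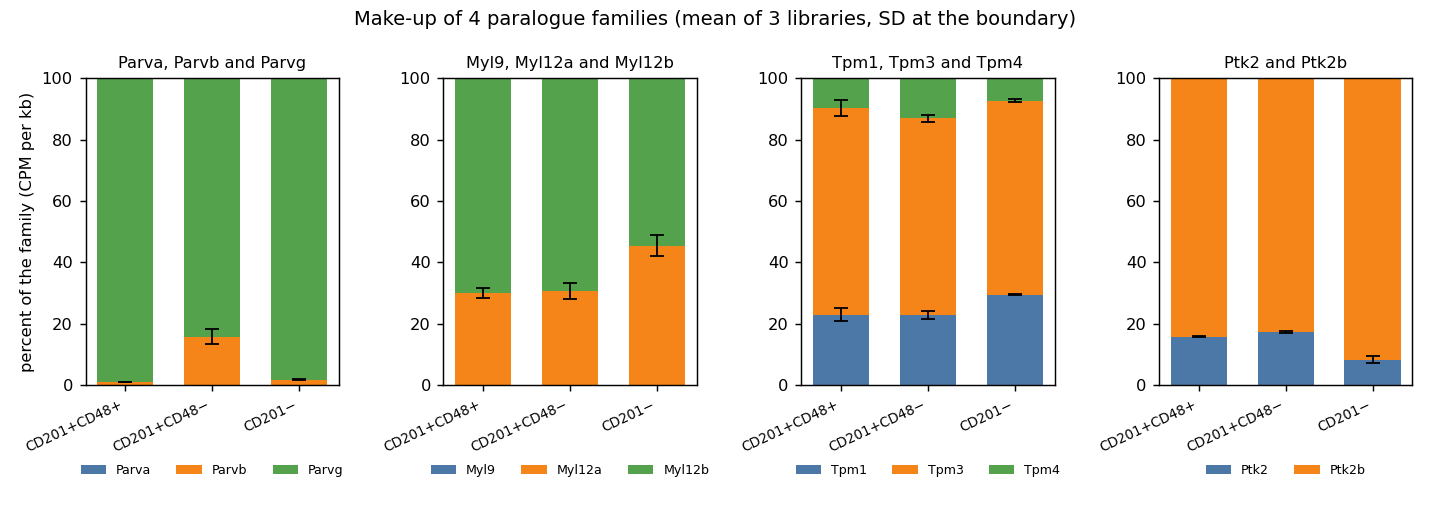
Share of each paralogue in its family's summed CPM per kb (y axis, percent), as the mean of 3 libraries per population with the SD of the lower block at each boundary. Parvb takes 15.6% of parvin in CD201+CD48- cells against 0.85% in CD201+CD48+ and 1.74% in CD201- cells; Parva and Myl9 are too low to be seen.

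Reads of close copies may be shared between genes. Of the 49 tested genes, 6, Actg1, Capza1, Ilk, Tpm3, Rac1 and Pfn1, share over 50% of the 36-base words in their canonical transcript with other annotated genes, many of them pseudogenes, and the sources used here do not say how such reads were counted. Over the other 43 genes, 9 rose and 19 fell in CD201+CD48- relative to CD201- cells, and 12 had every CD201+CD48+ library below all others. Over all genes these shares were 24.2%, 23.9% and 2.47%.

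Markers of other cell types moved with part of these results. The 23 megakaryocyte and platelet markers summed to 1292 to 1298 CPM in CD201+CD48+ libraries, 3103 to 3313 CPM in CD201+CD48- libraries and 1646 to 1853 CPM in CD201- libraries. None of the 23 was at 0 across the libraries of any population. Of the 20 tested, 17 had the lowest mean in CD201+CD48+ cells, against 18% of all genes. In CD201+CD48- over CD201- cells 17 rose, against 24.2% of all genes. The linkers were lowest in CD201+CD48+ cells and the kinases, Gsn and Parvb highest in CD201+CD48- cells in the same libraries, and the part of these markers in that was not tested. Vwf, von Willebrand factor, stood at 136, 118 and 121 CPM in CD201+CD48+, 766, 686 and 692 CPM in CD201+CD48- and 65.7, 74.0 and 56.8 CPM in CD201- libraries. Pf4 and other markers of that list are known in HSCs as well. The 18 mast cell and basophil markers, by contrast, were highest in CD201- libraries, as the actins were. They summed to 341.8 to 378.6 CPM in CD201+CD48+, 428.0 to 456.7 CPM in CD201+CD48- and 473.6 to 520.8 CPM in CD201- libraries. Unlike for the actins, the CD201+ populations did not overlap. Mcpt1, Mcpt2, Mcpt4, Tpsb2 and Cma1 were at 0 in all 9, and only 6 of the 18 had enough counts to be tested. The part of these markers was not tested either. The order of the kinases, with CD201+CD48- highest and CD201- lowest, was also that of the summed level of 24 neutrophil and macrophage markers. They stood at 77.2 to 86.2 CPM in CD201+CD48+, 102.5 to 108.1 CPM in CD201+CD48- and 68.8 to 76.8 CPM in CD201- libraries. S100a9, Marco and Ly6g were at 0 in all 9. Only 5 of the 24 had enough counts to be tested. Of these, 4 rose in CD201+CD48- over CD201- cells, against 24.2% of all genes. The lowest mean of these 5 lay in CD201+CD48+ cells for 2 and in CD201- cells for 3. Erythroid markers, 18 in number, had the order of the kinases as well in summed level. They stood at 656.9 to 704.6 CPM in CD201+CD48+, 710.5 to 753.0 CPM in CD201+CD48- and 611.3 to 647.2 CPM in CD201- libraries. Hba-a1 and Car1 were at 0 in all 9. Of the 8 erythroid markers tested, 3 rose and 3 fell in CD201+CD48- over CD201- cells, against 24.2% and 23.9% of all genes. The 17 endothelial and stromal markers, 7 of them tested, were lowest in CD201+CD48+ libraries, at 209.0 to 221.3 CPM. They stood at 244.1 to 253.7 CPM in CD201+CD48- and 242.1 to 258.2 CPM in CD201- libraries. Lymphoid markers, 17 with 3 tested, ran the other way. They stood at 55.2 to 61.8 CPM in CD201+CD48+, 42.2 to 45.2 CPM in CD201+CD48- and 27.2 to 33.4 CPM in CD201- libraries. The part of none of these lists was tested.

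Other genes of the same pathways were taken from lists that leave the 51 out. In CD201+CD48- over CD201- cells, 13 of 47 other adhesion adaptors rose and 9 fell, with a median of 0.06. Of all genes 24.2% rose and 23.9% fell in this comparison with TMM factors, which is also the background for the TMM counts of the other lists. With library size alone, 20 adaptors rose and 4 fell, but the median of all genes then moved to 0.17. The shares above are therefore no background for counts with library size alone, here or in the other lists. Tns2 (tensin-2) led them, at 11.4 ± 1.94 CPM in CD201+CD48+, 42.5 ± 3.87 CPM in CD201+CD48- and 5.17 ± 0.379 CPM in CD201- cells, a rise of 3.03 ± 0.17 (SE) in CD201+CD48- over CD201- cells (edgeR adjusted p = 1.6e-09). Palld (palladin) rose by 1.82 ± 0.11 (SE) and Lpp, a relative of zyxin, by 1.25 ± 0.09 (SE) (adjusted p = 6.3e-09 and 4.1e-08). Both had CD201+CD48+ cells between the other 2 populations, Palld for example averaging 34.1 ± 2.60 CPM in CD201+CD48+, 58.6 ± 2.36 CPM in CD201+CD48- and 16.6 ± 1.70 CPM in CD201- libraries.

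Of 29 other genes of filament assembly, 10 rose and 5 fell in CD201+CD48- over CD201- cells, or 16 and 1 with library size alone. Fmnl2, a formin of protrusions, read 160.1, 165 and 159 CPM in CD201+CD48+, 243, 240.3 and 253 CPM in CD201+CD48- and 41.6, 45.2 and 54.6 CPM in CD201- libraries, a rise of 2.38 ± 0.09 (SE) (edgeR adjusted p = 3.5e-11). Cttn (cortactin, which steadies filament branches) rose by 1.37 ± 0.17 (SE), while Actr3, the Arp3 subunit itself, fell by 0.71 ± 0.10 (SE) (adjusted p = 1.5e-05 and 2.7e-05). Actr3 therefore had the order of the listed Arp2/3 subunits between CD201+CD48- and CD201- cells, with means of 356 ± 20.4 and 584 ± 88.1 CPM. Of 45 other binding and turnover genes, 13 rose and 15 fell, or 18 and 9 with library size alone. Scin (scinderin, a gelsolin relative) was the reverse of Gsn, at 22.7 ± 2.59 CPM in CD201+CD48+, 15.8 ± 1.00 CPM in CD201+CD48- and 254 ± 47.9 CPM in CD201- cells, a fall of 4.01 ± 0.14 (SE) in CD201+CD48- relative to CD201- cells (adjusted p = 3.5e-11). Coro2a fell by 1.25 ± 0.07 (SE) and its paralogue Coro2b rose by 2.18 ± 0.16 (SE) (adjusted p = 2.5e-09 and 2.8e-08).

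Over all genes with CD201- cells as the baseline, 14.8% passed as higher in CD201+CD48+ cells and 14.3% as lower, and with CD201+CD48- cells as the baseline 6.31% and 9.05%. In CD201+CD48+ cells, 7 of those 47 adaptors were higher and 9 lower than in CD201- cells, and 1 was higher and 9 lower than in CD201+CD48- cells. Of the 29 assembly genes, 1 was higher and 2 lower with CD201- cells as the baseline, and 4 were lower with CD201+CD48- cells as the baseline. Of the 45 binding genes, 7 were higher and 13 lower against CD201- cells, and 4 higher and 7 lower against CD201+CD48- cells. With library size alone the splits against CD201- cells were 15 and 4 for the adaptors, 7 and 1 for the assembly genes and 11 and 10 for the binding genes. The median of all genes moved to 0.13 under that scaling, so the shares above, from TMM, are no background for these splits. Of 12 tested SRF and MRTF factors and known targets outside the 51 genes, 6 rose and none fell in CD201+CD48- over CD201- cells. Over all genes 24.2% rose and 23.9% fell. That list had 23 genes in the count table, and the rest were below the count filter. Among the 51 genes, Actg1 and Arpc4, whose windows held a CArG box, fell in that comparison. Vcl, whose window held one too, did not pass. Egr1, an SRF target of the immediate early response, rose by 1.84 ± 0.17 (SE) and Fhl1, a LIM protein, by 1.05 ± 0.16 (SE) (edgeR adjusted p = 3.9e-07 and 5.4e-05).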

How the data were processed

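RNA of 9 sorted samples was sequenced as paired reads of 36 bases. The deposited table holds raw read counts per gene symbol, and the submitters' processing notes name mm10 and DESeq2 without saying what each was used for. Aligner, counter and strand setting: not given in the sources used here. Of its columns, 3 with no matching sample were left out. Genes passing filterByExpr (minimum count 10; 11619 of 49585) were fitted in 1 edgeR 4.0.16 quasi-likelihood model (TMM, robust, R 4.3.3) over all 9 libraries, with Benjamini-Hochberg adjustment over all genes and a threshold of 0.05. The standard error is the log2 fold change divided by the root of F. The common biological coefficient of variation was 8.64%. CPM use TMM-scaled totals. The same fit was also run on counts simulated from its own means and dispersions. Over the 3 comparisons it recovered 66.2% to 70.3% of 1.5-fold changes and 95.6% to 98.4% of 4-fold changes.

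The 51 genes, the other gene lists and the tests were chosen with earlier results of these data known. Given with every library's value were, per role, the 2 genes lowest and the 2 highest in CD201+CD48+ cells relative to both other populations, and the 2 with the smallest p between CD201+CD48- and CD201- cells. Of the other lists, genes were named by the same p and the same ratio. Tln1, Vcl, Fermt3, Flna, Actb, Arpc5, Cap1, Tpm4, Capn2 and Vwf, the genes whose calls depend on 1 library, and the remaining members given in brief were added after their values were seen. Alternatives were DESeq2 1.42.0 (Wald test), its size factors, library size alone, no filter, a minimum count of 30, the 6 libraries compared, a replicate block and leaving out each library. Transcript lengths and shared 36-base words came from GENCODE vM39 canonical transcripts, and gene positions and promoters from RefSeq GRCm38.p6. A role group of 6 of the 51 genes and a culture additive are not reported here; the counts over the 49 tested genes include that group.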

Additional observations from a re-analysis of the deposited data

How the results depend on the processing

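No called gene of the set changed sign under any of the 16 alternatives, and of the calls made, 24 of 32 (CD201+CD48+ over CD201-), 10 of 17 (CD201+CD48+ over CD201+CD48-) and 19 of 32 (CD201+CD48- over CD201-) passed under all 16. Both comparisons of CD201+CD48+ cells were used to choose the genes, so nothing is read from how many of their calls held. With library size alone, CD201+CD48+ over CD201- had 2701 genes higher and 851 lower (1723 and 1661 with TMM), 7 genes of the set higher and a set median of -0.18; CD201+CD48+ over CD201+CD48- had 1 gene of the set higher and a median of -0.15; CD201+CD48- over CD201- had 1685 genes lower (2778 with TMM), 14 genes of the set higher, 11 lower and a median of -0.021. For CD201+CD48+ over CD201+CD48-, 1 gene of the set was higher with DESeq2 size factors, a minimum count of 30, the DESeq2 Wald test or the replicate block, and fitting only the 6 libraries compared gave 1576 genes higher and 1763 lower (733 and 1052 in the fit of all 9). The causes were not tested.

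Leaving out 1 library at a time gave 1073 (without CD201+CD48+ replicate 3) to 2115 (without CD201- replicate 3) genes lower and a set median of -0.34 to -0.30 for CD201+CD48+ over CD201-. For CD201+CD48+ over CD201+CD48- it gave 360 to 1712 genes higher, 663 to 1822 lower, 1 to 4 genes of the set higher, 9 to 20 lower and a median of -0.13 to -0.082. The lowest counts of all genes came without CD201+CD48- replicate 1 and the highest without CD201- replicate 3, and the 9 without CD201+CD48+ replicate 3. Deviations of same-numbered libraries correlated at -0.13 to 0.05, so no shared effect of the replicate number was seen. Whether same-numbered libraries came from the same culture cannot be told from these values. With the number as a block, 9 genes of the set were higher and 20 lower in CD201+CD48- over CD201-, where Diaph1 and Cap1 were among those that lost their call.

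Depth limits Src in CD201- cells, with as few as 3 counts, Parvb in CD201+CD48+ cells, and Parva and Myl9, which could not be tested. The 3 libraries per population, of unstated origin, set the spread behind each p.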

Other observations

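Integrins, the receptors to which these adhesion genes attach, were listed apart from the 51 genes, and 15 of 25 in the table were tested. Their summed level was 1409 to 1464 CPM in CD201+CD48+ libraries, 1886 to 2012 CPM in CD201+CD48- libraries and 1828 to 1919.8 CPM in CD201- libraries. In CD201+CD48- over CD201- cells, 5 rose and 3 fell, where 24.2% of all genes rose and 23.9% fell. With library size alone 6 rose and 1 fell, but the median of all genes then moved to 0.17, so those shares do not apply. Itgb5 stood at 35.5, 28.7 and 32.6 CPM in CD201+CD48+, 56.1, 57.4 and 63.1 CPM in CD201+CD48- and 3.10, 4.73 and 3.51 CPM in CD201- libraries, a rise of 3.95 ± 0.16 (SE) log2 units in CD201+CD48- over CD201- cells (edgeR adjusted p = 7.1e-11). Itgb3, the beta-3 chain, rose by 1.82 ± 0.11 (SE) in that comparison (adjusted p = 2.7e-09). Its partner Itga2b, which pairs with it as the fibrinogen receptor of platelets, fell by 0.26 ± 0.08 (SE) (adjusted p = 0.012). In CD201+CD48+ cells both chains were low, Itgb3 at 29.7, 31.6 and 32.3 CPM, against 280.2, 208 and 217 CPM in CD201+CD48- and 67.7, 68.6 and 63.6 CPM in CD201- libraries, and Itga2b at 86.6, 77.1 and 73.4 CPM, against 300.1, 292 and 302 CPM in CD201+CD48- and 365, 367 and 337 CPM in CD201- libraries. Both genes also stand in the megakaryocyte list. Itgal, the alpha chain of the leukocyte integrin LFA-1, ran against Itgb5: it read 18.8, 19.1 and 16.5 CPM in CD201+CD48+, 12.5, 12.6 and 10.4 CPM in CD201+CD48- and 48.9, 49.7 and 53.7 CPM in CD201- libraries, and fell by 2.09 ± 0.12 (SE) in CD201+CD48- relative to CD201- cells (adjusted p = 3.4e-09).

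Of 23 other myosins and myosin regulators, 7 rose and 8 fell in CD201+CD48- over CD201- cells, beside the same shares of all genes. With library size alone 7 rose and 4 fell, with the median of all genes again at 0.17. Myo1f, a membrane-linked myosin of leukocytes, rose by 1.00 ± 0.09 (SE) (edgeR adjusted p = 4.2e-07), with means of 69.9 ± 6.65 CPM in CD201+CD48+, 97.9 ± 6.44 CPM in CD201+CD48- and 48.8 ± 1.29 CPM in CD201- libraries (SD, n = 3). Cit (citron kinase, which acts in the cleavage furrow) fell by 0.63 ± 0.09 (SE), and Ppp1r14b, which encodes an inhibitor of a myosin phosphatase, by 0.82 ± 0.11 (SE) (adjusted p = 2.9e-05 and 3.0e-05). CD201+CD48+ cells lay between the other populations for both, at 177 ± 17.6 and 89.6 ± 9.23 CPM.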
